A study of Homo sapiens with 12 samples.

Results

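Interferon-stimulated genes are the genes that cells switch on when interferon reaches its receptor. A fixed list of 50 of them was followed through RNA sequencing of 2 human cholangiocarcinoma (bile duct cancer) cell lines. The list was set by gene symbol and not by a cut on measured values, but earlier results of these data were known. All 50 symbols were found among the 60651 genes of the deposited count table. EGI-1 cells were grown for 72 h with vehicle (DMSO), with 500 nM decitabine, with 200 nM talazoparib or with both drugs at those doses, and HUCCT1 cells with vehicle or 1000 nM decitabine. Both lines are labelled as wild type, and each of the 6 arms had 2 libraries. Decitabine is a cytidine analogue that traps DNA methyltransferases and lowers DNA methylation in dividing cells, and talazoparib inhibits poly(ADP-ribose) polymerases and traps them on DNA. The paper states the aim of combining these drugs against cholangiocarcinoma, and the comparisons here ask how the interferon-stimulated genes stood in each arm. No source says that the 2 libraries of an arm came from separate cultures, so the p-values measure the spread between libraries, which may be technical.

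Type I interferons bind IFNAR1 and IFNAR2, and the kinases JAK1 and TYK2 then phosphorylate STAT proteins. STAT2 and IRF9 act in a complex that binds the interferon-stimulated response element in the promoters of target genes. Those targets include RNA-binding antiviral proteins (the IFIT and OAS families), membrane proteins that block virus entry or release (the IFITM family and BST2), dynamin-like GTPases (MX1 and MX2) and the ubiquitin-like modifier ISG15. In tumour cells treated with DNA methyltransferase inhibitors, the same genes are commonly read as a sign that silenced repeats are being transcribed and sensed as viral RNA.

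The promoters of 4 members, picked for how they changed, are shown first. IFI6 and ISG15 stood higher in both lines under treatment, HERC5 rose in HUCCT1 from near 0, and IFIT1 fell there. Each run is the 250 bases before the RefSeq transcription start, from the 5′ to the 3′ end on the gene's own strand, in assembly GRCh38.p14. Capitals mark the core of the response element, the letters GAAANNGAAA or, on the other strand, TTTCNNTTTC, and overlapping matches run together. IFI6 lies at chr1:27672193-27672442 on the minus strand, ISG15 at chr1:1013247-1013496 on the plus strand, HERC5 at chr4:88456869-88457118 on the plus strand and IFIT1 at chr10:89392373-89392622 on the plus strand.
IFI6: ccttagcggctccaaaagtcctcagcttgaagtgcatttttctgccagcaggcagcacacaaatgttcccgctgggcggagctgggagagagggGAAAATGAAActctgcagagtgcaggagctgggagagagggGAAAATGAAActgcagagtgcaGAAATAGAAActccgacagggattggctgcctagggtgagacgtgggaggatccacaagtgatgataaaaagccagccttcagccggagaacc
ISG15: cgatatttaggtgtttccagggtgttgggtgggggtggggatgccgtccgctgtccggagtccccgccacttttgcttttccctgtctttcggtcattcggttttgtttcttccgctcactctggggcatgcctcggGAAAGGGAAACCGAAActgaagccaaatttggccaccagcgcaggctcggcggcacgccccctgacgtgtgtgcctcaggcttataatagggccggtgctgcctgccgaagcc
HERC5: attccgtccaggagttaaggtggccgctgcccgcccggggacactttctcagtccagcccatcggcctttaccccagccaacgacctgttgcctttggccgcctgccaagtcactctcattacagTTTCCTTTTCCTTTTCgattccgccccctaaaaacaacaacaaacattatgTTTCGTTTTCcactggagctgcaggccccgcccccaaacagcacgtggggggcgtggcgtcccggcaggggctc
IFIT1: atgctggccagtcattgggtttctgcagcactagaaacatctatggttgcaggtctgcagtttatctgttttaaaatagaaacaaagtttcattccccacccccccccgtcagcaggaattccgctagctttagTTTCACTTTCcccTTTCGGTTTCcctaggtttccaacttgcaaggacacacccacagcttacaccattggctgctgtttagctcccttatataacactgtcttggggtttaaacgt

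IFI6 and HERC5 each held 3 matches, and ISG15 and IFIT1 held 2 each. Other members that changed held no match, among them STAT2, HERC6 and OAS1, which were higher in the EGI-1 combination. RefSeq windows were found for 43 of the 50 members, 57 windows in all because some genes start at several places, and MX2, IFIT2, IFITM2, OAS2, OASL, USP18 and LY6E had none. The core was present in 31 of the 57 windows (54.4%), against 1061 of 35116 windows of all genes (3.02%). A match is a run of letters and not a bound site. The 57 windows held a median of 6 CpG dinucleotides, the pair of bases that DNA methyltransferases act on, against 11 over all windows.

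Total counts ran from 23139065 to 33181930 in the 8 EGI-1 libraries and from 32519985 to 34965627 in the 4 HUCCT1 libraries, and the members took 0.286% to 0.350% of them. The epithelial keratins KRT8, KRT18 and KRT19 were among the abundant genes of every library, at 551 to 5290 CPM (counts scaled to the size of the library). Of the other biliary markers listed, KRT7 was at 41.2 to 73.1 CPM in EGI-1 and 3637 to 6739 CPM in HUCCT1. EPCAM and SOX9 were at 134.5 to 304 CPM over all libraries. In HUCCT1, KRT8 was at 3637 and 3624 CPM in vehicle and lower, at 1973 and 2127 CPM, with decitabine. UCHL1, a gene often methylated in tumours and listed here to check the decitabine labels, had 0 counts in both HUCCT1 vehicle libraries and 936 and 1028 in the decitabine libraries. It had 0 in both EGI-1 decitabine libraries and 4 and 1 in the EGI-1 combination, so the check bears out the HUCCT1 label alone. By PCR, the paper reports higher UCHL1 mRNA with decitabine in sensitive and resistant cells, and a demethylated UCHL1 promoter in EGI-1. The EGI-1 combination replicate 2 stood apart: 160 genes lay more than 4-fold above every other EGI-1 library (and above 0.5 CPM), against 2 to 9 genes in each of the other 7, and none of the 160 was a member. Over 6 leukocyte markers, the summed count was 719 in that library and 89 to 169 in the other 7, with PTPRC at 381 counts (1 to 7 elsewhere in EGI-1) and CD3E at 148 (0 to 4). Over 10 lymphocyte genes chosen after this was seen, the sum was 1419 against 10 to 41. The main counts of the comparisons that use this library are also given without it, and the part of the lymphocyte signal in them was not tested. HUCCT1 libraries carry a different lane code from EGI-1 libraries, so line and lane cannot be told apart. Talazoparib library names carry a code that reads T50, whereas the labels give 200 nM.

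Levels between genes were compared in TPM, a unit scaled to the same total in every library, which allows for gene length. In EGI-1 vehicle the most abundant member was LGALS3BP, a secreted glycoprotein that binds galectins, at a mean of 1240 TPM, followed by IFITM3 (175), ISG15 (156), the ISG15-conjugating enzyme UBE2L6 (128) and the ubiquitin ligase TRIM25 (110). In HUCCT1 vehicle the order was LGALS3BP (1090), ISG15 (216), IFITM3 (156), IFITM2 (133) and BST2 (104). The members' summed level was 2636 and 2698 TPM in the EGI-1 vehicle libraries, 3176 and 3090 TPM in the combination, and 2637 to 2748 TPM over the 4 HUCCT1 libraries. In EGI-1 the combination libraries had the highest sums, 2764 and 2868 TPM being found with decitabine and 2920 and 2869 TPM with talazoparib. LGALS3BP alone made up 1203 and 1269 TPM of the vehicle sums and 1450 and 1400 TPM of the combination sums. As a share of counts, the members took 0.3204% and 0.3212% in EGI-1 vehicle and 0.3502% and 0.3468% with the combination. In bulk RNA, fewer cells that express a gene and less RNA per cell cannot be told apart.

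**Figure D1:**
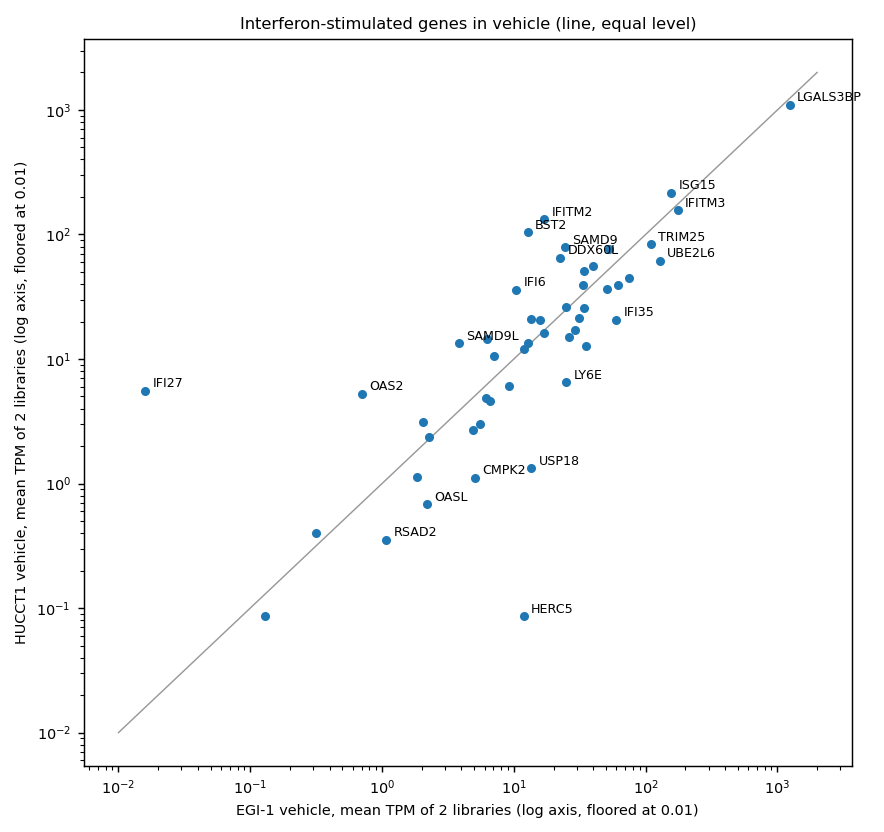
Mean level of each of the 50 members in the 2 vehicle libraries of EGI-1 (x axis, TPM, log scale) and of HUCCT1 (y axis, TPM, log scale), with the line of equal level. LGALS3BP was the most abundant member in both lines, HERC5 and USP18 lay below the line and IFI27, OAS2, BST2 and IFITM2 above it.

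The untreated lines differed in most members. Against EGI-1 vehicle, 19 of the 50 members were higher in HUCCT1 vehicle and 18 were lower (edgeR's quasi-likelihood test, adjusted p under 0.05), where 28.5% of all genes tested were higher and 27.3% lower. The member shares, 38% and 36%, thus stood above a background that was itself high. From here on, levels within a gene are in CPM, with replicate 1 before replicate 2. CPM used size factors set within each line, so the 2 lines are not on a common CPM scale. The log2 differences between lines come from the fit of all 12 libraries and can depart from CPM ratios. HERC5, the ligase that attaches ISG15 to new proteins, was at 14.2 and 14.9 CPM in EGI-1 vehicle and at 0.0900 and 0.119 CPM in HUCCT1 vehicle, which were 3 and 4 counts. Scaled by those within-line factors, the ratio of the summed counts was 139 (95% interval 67.4 to 348, counting error only). The fit of all 12 libraries gave a log2 difference of −6.85. USP18, which removes ISG15 and dampens the type I receptor, was at 14.4 and 14.3 CPM in EGI-1 and 1.5 and 1.25 CPM in HUCCT1 (log2 difference −3.16 ± 0.152 SE, adjusted p = 1.24e-13).

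The other members that were lowest in HUCCT1 relative to EGI-1 were CMPK2 (−1.98), OASL (−1.5), RSAD2 (−1.38), IFI35 (−1.33), IRF1 (−1.29) and UBE2L6 (−0.85, all log2 differences). RSAD2 (viperin, which makes a chain-terminating nucleotide) and its neighbour CMPK2 overlap by 351 exonic bases on opposite strands, so their counts cannot be fully told apart where strand was not used. The largest difference in the other direction was IFI27, a small mitochondrial protein, at 5.76 and 5.93 CPM in HUCCT1 vehicle and 1 and 0 counts in EGI-1 vehicle. With the within-line factors, it was at least 50.6-fold higher when 3 counts per EGI-1 library are allowed. BST2, or tetherin, which holds budding virus at the cell surface, was at 28.1 and 29.8 CPM in HUCCT1 and 3.92 and 3.30 CPM in EGI-1 (log2 difference 3.23 ± 0.148, adjusted p = 5.42e-14). IFITM2 (3.17), OAS2 (3.09), IFI6 (2.01), SAMD9L (2.00), SAMD9 (1.88) and DDX60L (1.74) were also higher in HUCCT1. With upper-quartile scaling, which moved the median of all genes to −0.127, 18 members were higher and 21 lower.

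The combination in EGI-1 was followed by a rise of part of the list. Against vehicle, 16 of the 49 members tested were higher (32.7%) and none was lower, where 11.1% of all genes tested were higher and 7.61% lower. With DESeq2 15 were higher and none lower, and at an unadjusted p under 0.05 the counts were 20 and 1, where 16.3% and 14.6% of all genes passed. IFI27 was too low in EGI-1 to be tested, at 0 to 7 counts in all 8 libraries. The median log2 fold change over the 49 members was 0.16, against −0.02 over all genes. Both combination libraries lay above all 6 other EGI-1 libraries for 20 members (40.8%), against 12.5% of all genes, and below them for IFIT5 alone (2.04%), against 11.2%. Without the combination replicate 2, which holds the lymphocyte genes, 11 of the 16 were still called and no other member was. IFITM1, ISG20, OAS1, DDX60L and LGALS3BP were the ones lost. Without the vehicle replicate 1 the count was 8.

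**Figure D2:**
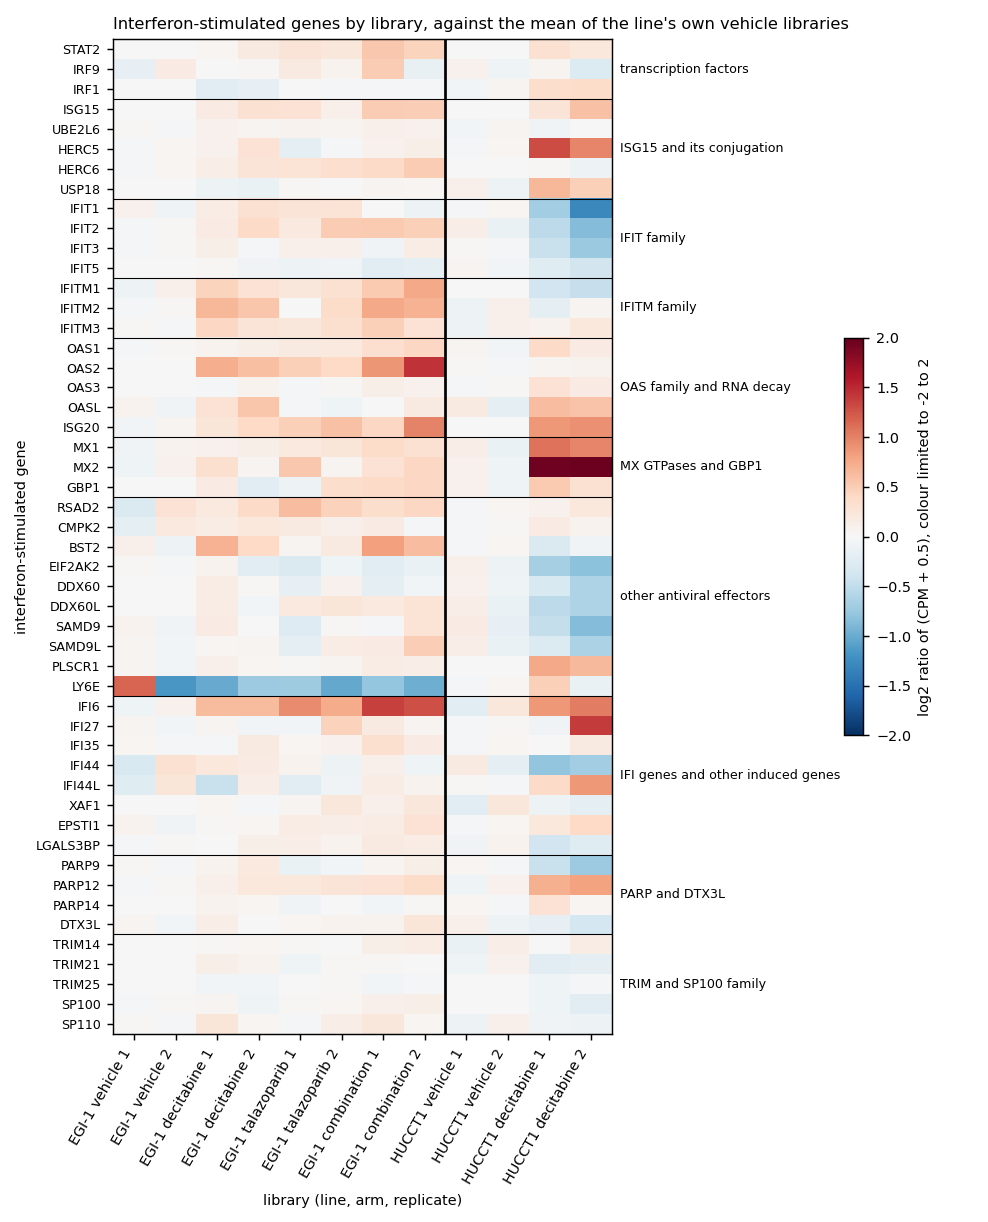
Log2 ratio of CPM plus 0.5 to the mean of the same line's vehicle libraries, for the 50 members (rows, by role) in the 12 libraries (columns), with colour limited to −2 to 2. The EGI-1 combination columns are mostly pale red, and the HUCCT1 decitabine columns hold both strong red (HERC5, MX2, MX1) and blue (the IFIT family).

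Among the transcription factors, STAT2 was at 59.9 and 58.7 CPM in vehicle, 60.9 and 67.3 with decitabine, 70.7 and 69.3 with talazoparib and 86.1 and 81.0 with the combination. Its 2 combination libraries were the highest of the 8, and it rose by a log2 fold change of 0.49 ± 0.0707 (SE, adjusted p = 8.6e-05). IRF9, the DNA-binding subunit that partners STAT2, was at 2.63 and 3.45 CPM in vehicle and at 4.51 and 2.69 with the combination. These ranges overlapped (log2 0.23 ± 0.237, adjusted p = 0.559). IRF1, an activator that acts beside the STAT complex, was at 112 CPM in both vehicle libraries and at 110 and 109 with the combination (−0.04 ± 0.0606, adjusted p = 0.747).

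In the ISG15 system, ISG15 itself was at 35.03 and 34.7 CPM in vehicle, 39.2 and 43.0 with decitabine, 42.9 and 37.6 with talazoparib and 49.98 and 49.2 with the combination. The groups of vehicle and combination did not overlap, and the log2 fold change was 0.51 ± 0.0831 (adjusted p = 0.000323). HERC6, a relative of HERC5, rose by 0.45 ± 0.088 (adjusted p = 0.00146). UBE2L6 was at 68.9 and 67.1 CPM in vehicle and 73.2 and 72.3 with the combination, HERC5 at 14.2 and 14.9 against 15.5 and 15.8, and USP18 at 14.4 and 14.3 against 14.8 and 14.7. None of these 3 passed the test (log2 0.10, 0.10 and 0.04).

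All 3 IFITM genes, whose products stiffen membranes against virus fusion, were higher with the combination. IFITM2 was at 6.90 and 7.16 CPM in vehicle, 11.5 and 10.6 with decitabine, 6.97 and 9.26 with talazoparib and 12.3 and 11.65 with the combination (log2 0.77 ± 0.140, adjusted p = 0.00083). For this gene the decitabine libraries lay close to the combination and 1 talazoparib library lay among the vehicle values. IFITM1 was at 5.30 and 6.18 CPM in vehicle and 8.41 and 10.0 with the combination (0.69 ± 0.146, adjusted p = 0.00283), and IFITM3 rose by 0.38 ± 0.0724 (adjusted p = 0.00112). IFITM1, IFITM2 and IFITM3 are close in sequence, and how reads shared between them were counted is not given in the sources used here. Of the 4 IFIT genes only IFIT2 passed, at 13.96 and 14.5 CPM in vehicle and 20.8 and 20.1 with the combination (0.52 ± 0.119, adjusted p = 0.00483). IFIT1, which binds viral RNA caps, was at 8.87 and 7.84 CPM in vehicle and 8.37 and 7.72 with the combination, although it reached 9.28 to 10.4 in the single-drug libraries.

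OAS2, which makes the oligoadenylates that activate RNase L, was at 2.04 and 2.05 CPM in vehicle, 3.70 and 3.36 with decitabine, 3.06 and 2.84 with talazoparib and 4.21 and 6.45 with the combination. All 6 treated libraries lay above vehicle, and the combination replicate 2 was the highest of the 8. The log2 fold change was 1.39 ± 0.221 (adjusted p = 0.000245), and the call held without that replicate. OAS1 was at 6.79 and 7.01 CPM in vehicle and 8.88 and 9.31 with the combination (0.40 ± 0.128, adjusted p = 0.0374). ISG20, an RNA exonuclease, was at 3.99 and 4.36 CPM in vehicle and 5.75 and 8.79 with the combination (0.81 ± 0.186, adjusted p = 0.00492). Its combination replicate 1 lay below both talazoparib libraries (6.03 and 6.47). OAS3 and OASL did not pass (0.10 and 0.10).

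IFI6, a small mitochondrial protein, had the largest fold change among the 49 members tested. It was at 2.32 and 2.69 CPM in vehicle, 4.13 and 4.17 with decitabine, 5.30 and 4.54 with talazoparib and 7.25 and 6.79 with the combination. No pair of these 4 arms overlapped, and the combination differed from vehicle by 1.49 ± 0.173 (adjusted p = 9.8e-06). BST2 was at 3.92 and 3.30 CPM in vehicle, 6.14 and 4.87 with decitabine, 3.75 and 4.11 with talazoparib and 6.74 and 5.76 with the combination (0.79 ± 0.178, adjusted p = 0.00465). The talazoparib libraries of BST2 lay near vehicle and the decitabine libraries near the combination.

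MX1, a GTPase that traps viral nucleocapsids, was at 21.4 and 23.8 CPM in vehicle, 24.0 and 24.6 with decitabine, 25.9 and 26.8 with talazoparib and 29.3 and 28.2 with the combination (0.35 ± 0.090, adjusted p = 0.0119). PARP12, a mono-ADP-ribosyltransferase, rose by 0.33 ± 0.0705 (adjusted p = 0.00286), DDX60L by 0.24 ± 0.0731 (adjusted p = 0.0292) and LGALS3BP by 0.16 ± 0.053 (adjusted p = 0.0398). GBP1, a large GTPase that also answers interferon gamma, was at 9.81 CPM in both vehicle libraries and 13.0 and 13.3 with the combination, but its adjusted p was 0.0645. RSAD2 was at 1.14 and 1.97 CPM in vehicle and 2.06 and 2.17 with the combination (0.45 ± 0.271, adjusted p = 0.280). LY6E, a surface protein, was at 29.0 and 5.38 CPM in the 2 vehicle libraries and at 5.99 to 7.53 in the other 6, so that its fold changes near −1.37 rest on vehicle replicate 1. Among the 49 members tested in EGI-1, no other gene was so far apart between replicates.

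**Figure D3:**
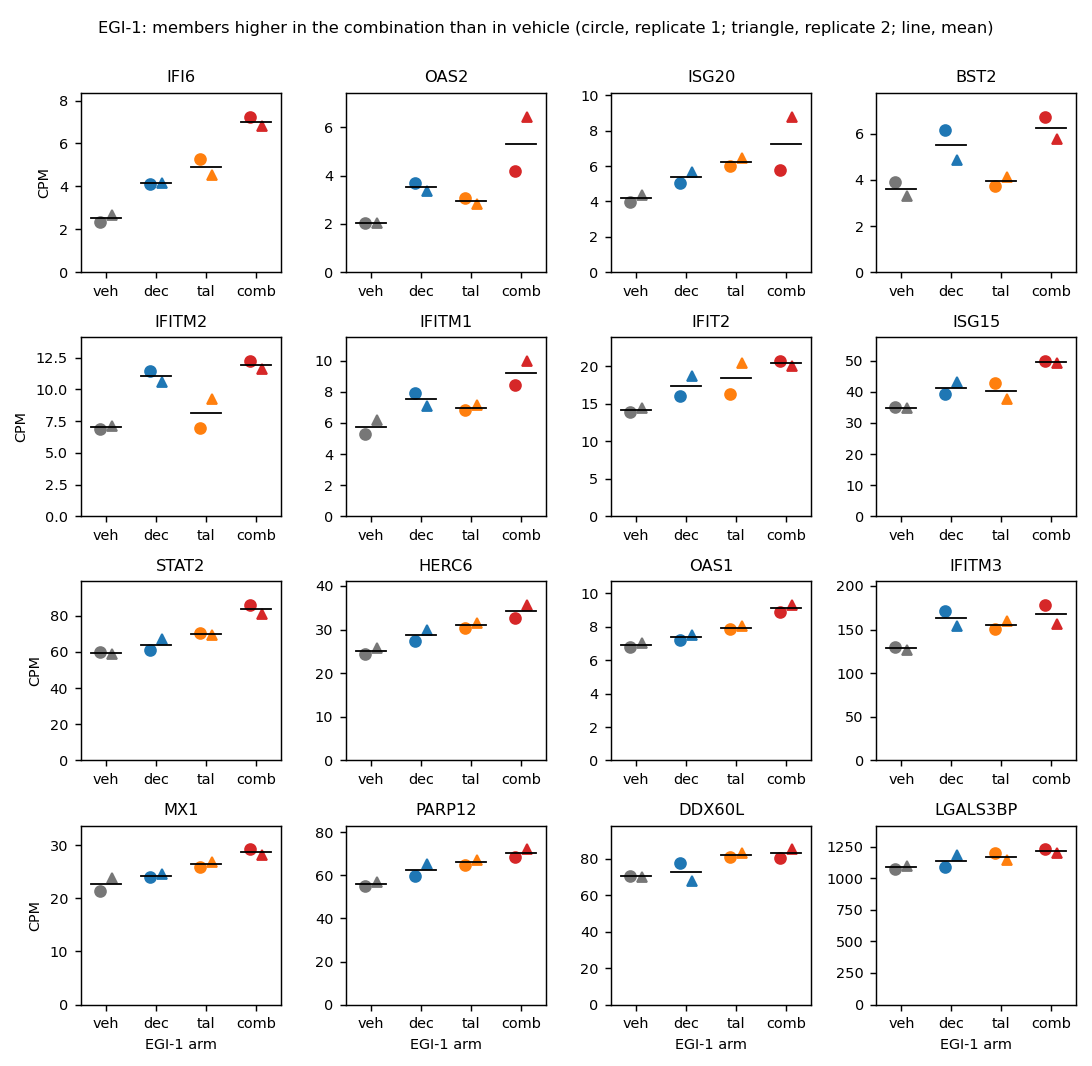
CPM in each EGI-1 library for the 16 members that rose with the combination (circles, replicate 1; triangles, replicate 2; lines, means of 2), with vehicle, decitabine, talazoparib and combination from left to right and each y axis starting at 0. IFI6 climbs from 2.32 and 2.69 CPM in vehicle to 7.25 and 6.79 with the combination, while OAS2 and ISG20 show their 2 combination libraries apart.

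The single drugs moved few members. With decitabine alone, IFITM2 (0.65 ± 0.140, adjusted p = 0.0427) and IFITM3 (0.34 ± 0.0723, adjusted p = 0.0363) were higher and none was lower, 4.08% of the 49 members tested against 0.518% of all genes higher and 0.0268% lower. Both calls were lost without vehicle replicate 1, without vehicle replicate 2 and without decitabine replicate 1. Over the list, 40 members had a fold change above 0 and 9 below, where 50.8% of all genes lay above 0. IFI6 (0.73 ± 0.180, adjusted p = 0.0907), OAS2 (0.79 ± 0.227, adjusted p = 0.179) and BST2 (0.61 ± 0.179, adjusted p = 0.193) had larger fold changes than IFITM3 but did not pass. At an unadjusted p under 0.05, 11 members were higher and 1, IRF1, was lower, where 6.03% of all genes were higher and 3.12% lower. DESeq2 gave 2 higher and none lower.

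With talazoparib alone, IFI6 (0.97 ± 0.177, adjusted p = 0.00324) and IFITM3 (0.28 ± 0.0724, adjusted p = 0.0369) were higher, also 4.08% of the members, against 2.83% of all genes higher and 1.29% lower. No member was lower. At an unadjusted p under 0.05 the counts were 13 and 0, against 9.33% and 6.61% of all genes. Both calls were lost without vehicle replicate 1 and without talazoparib replicate 1, and IFITM3 was lost without either of the other 2 libraries. When only the 4 libraries of this comparison were fitted, 8 members were called higher.

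Against decitabine alone, the combination raised IFI6 (0.76 ± 0.164, adjusted p = 0.00752) and STAT2 (0.38 ± 0.0705, adjusted p = 0.00217), 2 of 49 members against 4.42% of all genes higher and 3.26% lower. Without combination replicate 2 both calls held (0.80 for IFI6 and 0.43 for STAT2), but without combination replicate 1 the IFI6 call was lost (adjusted p = 0.0597) while ISG20 and OAS2 were called. Without decitabine replicate 1 the count was 4 and without decitabine replicate 2 it was 6. Against talazoparib alone it raised OAS2 (0.86 ± 0.212, adjusted p = 0.0437), 1 of 49 members against 1.36% of all genes higher and 0.567% lower, and that call was lost without combination replicate 2 (0.52, adjusted p = 0.483), without talazoparib replicate 1, without talazoparib replicate 2, with either replicate block and with DESeq2. In its place IFITM2 was called by DESeq2 and without talazoparib replicate 2. No member departed from the sum of both drugs' own log2 effects, where 0.00893% of all genes were higher and 0.152% lower. At an unadjusted p under 0.05 none was above the sum, and IFIT1 (−0.58 ± 0.181) and IFITM3 (−0.24 ± 0.102) were below it, and DESeq2 called none in either direction. Over all genes, 1.39% were above and 1.99% below at that unadjusted threshold. Without combination replicate 2 again no member was called. For IFI6 the departure was −0.21 ± 0.241 and for STAT2 0.14 ± 0.0999. These EGI-1 comparisons share libraries, so they are not independent.

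In HUCCT1, decitabine split the list. Of 50 members tested, 13 were higher (26%) and 12 lower (24%), where 19.6% of all genes tested were higher and 13.9% lower. The share of members higher thus stood near the background, and the median over the list was 0.07, against 0.00198 over all genes. DESeq2 gave 10 higher and 11 lower. Some markers of other cell types were higher in the same decitabine libraries. The 6 leukocyte markers summed to 98 and 104 counts in vehicle and 200 in both decitabine libraries, the 10 lymphocyte genes to 20 and 18 against 199 and 184, and the fibroblast collagen COL1A1 was at 24.1 and 26.6 CPM against 143 and 169. The rise was not shared by all of these genes. PTPRC was at 3 and 4 counts in vehicle and 3 in both decitabine libraries, and IKZF1 at 0 and 1 against 2 and 0. CD2 and CD3G were at 0 in all 4 HUCCT1 libraries. ZAP70 (5 and 9 against 69 and 41) and CCR7 (1 and 0 against 50 and 50) were among those that rose. The part of these markers in the members' changes was not tested.

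The members that rose in HUCCT1 were led by HERC5, at 0.0900 and 0.119 CPM in vehicle (3 and 4 counts) and 0.985 and 0.694 with decitabine (35 and 23 counts). Scaled for library size, the ratio of the summed counts was 8.10 (95% interval 3.69 to 21.0, counting error only), and the test gave a log2 fold change of 2.97 ± 0.587 (adjusted p = 0.00028). Even so, its decitabine level stayed far below the 12.7 to 17.9 CPM of the EGI-1 libraries. MX2, the nuclear relative of MX1, was at 1.59 and 1.36 CPM in vehicle and 7.12 and 7.21 with decitabine (2.28 ± 0.214, adjusted p = 4.96e-09). MX1 was at 13.5 and 11.2 CPM in vehicle and 26.8 and 24.6 with decitabine (1.06 ± 0.134, adjusted p = 7.82e-07). For both MX genes the decitabine libraries lay well above vehicle and close together.

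IFI44L was at 0.270 and 0.237 CPM in vehicle and 0.479 and 0.875 with decitabine (1.40 ± 0.530, adjusted p = 0.0442), which are low counts with decitabine libraries apart. ISG20 was at 4.26 and 4.36 CPM in vehicle and 8.28 and 8.57 with decitabine (0.97 ± 0.173, adjusted p = 8.52e-05). IFI6 was at 7.17 and 10.1 CPM in vehicle and 15.9 and 17.8 with decitabine (0.97 ± 0.157, adjusted p = 2.55e-05). PARP12 was at 74.1 and 83.2 CPM in vehicle and 129 and 138 with decitabine (0.76 ± 0.109, adjusted p = 4.77e-06). OASL, an OAS relative without the enzyme's activity, was at 1.29 and 0.890 CPM in vehicle and 1.92 and 1.84 with decitabine (0.78 ± 0.300, adjusted p = 0.0462).

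USP18 was at 1.5 and 1.25 CPM in HUCCT1 vehicle and 2.45 and 2.11 with decitabine (0.73 ± 0.273, adjusted p = 0.0402), ISG15 at 47.8 and 47.3 against 56.8 and 71.5 (0.43 ± 0.119, adjusted p = 0.00617), GBP1 at 24.0 and 21.0 against 32.6 and 27.7 (0.42 ± 0.127, adjusted p = 0.0114) and IRF1 at 37.6 and 41.0 against 50.1 and 51.0 (0.36 ± 0.113, adjusted p = 0.0146). In each of these 4 genes both decitabine libraries lay above both vehicle libraries. PLSCR1, a phospholipid scramblase with antiviral activity, rose by 0.72 ± 0.118 (adjusted p = 3.08e-05). Calls of IFI44L, OASL and USP18 were not made by DESeq2.

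The members that fell in HUCCT1 included 3 of the 4 IFIT genes. IFIT1 was at 11.9 and 12.7 CPM in vehicle and 7.43 and 4.71 with decitabine (−1.01 ± 0.179, adjusted p = 7.24e-05), IFIT2 at 16.2 and 13.4 against 10.1 and 7.85 (−0.72 ± 0.155, adjusted p = 0.000724) and IFIT3 at 22.5 and 21.6 against 16.1 and 13.0 (−0.60 ± 0.135, adjusted p = 0.00107). IFIT5 had a fold change of −0.31 ± 0.122 that missed the threshold (adjusted p = 0.0534). For each of the 3 genes called, no decitabine library reached a vehicle library. EIF2AK2, the kinase PKR that halts translation on double-stranded RNA, was at 109 and 94.3 CPM in vehicle and 64.02 and 57.1 with decitabine (−0.75 ± 0.114, adjusted p = 1.14e-05).

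IFI44 was at 7.11 and 5.37 CPM in HUCCT1 vehicle and 3.38 and 3.62 with decitabine (−0.83 ± 0.198, adjusted p = 0.00178). SAMD9, a translation-restricting antiviral factor, was at 153 and 121 CPM against 97.7 and 74.2 (−0.67 ± 0.130, adjusted p = 0.000246). PARP9 was at 48.3 and 45.6 CPM against 34.2 and 28.2 (−0.59 ± 0.121, adjusted p = 0.000428), and its partner DTX3L, with which it shares 139 exonic bases on opposite strands, had −0.26 ± 0.113 (adjusted p = 0.0777). DDX60L was at 219 and 182 CPM against 140 and 130 (−0.58 ± 0.112, adjusted p = 0.000239). DDX60 (−0.47), SAMD9L (−0.46), IFITM1 (−0.45) and LGALS3BP (−0.31) were the other members that fell.

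Other members with a fixed place in the report did not pass in HUCCT1. STAT2 was at 62.1 and 60.8 CPM in vehicle and 76.0 and 71.4 with decitabine (0.26 ± 0.109, adjusted p = 0.0664), though it was called with upper-quartile scaling, with the replicate block and with all 12 libraries in 1 fit. IRF9 was at 1.98 and 1.69 against 1.92 and 1.42. UBE2L6 was at 31.0 and 33.5 CPM against 30.7 and 31.9, OAS1 at 10.7 and 9.82 against 13.4 and 11.6 (called with the replicate block alone), RSAD2 at 0.480 and 0.534 against 0.563 and 0.664, and BST2 at 28.1 and 29.8 against 23.5 and 27.5. IFI27 was at 5.76 and 5.93 CPM in vehicle and at 5.55 and 16.2 with decitabine, so that only decitabine replicate 2 stood apart (0.89 ± 0.735, adjusted p = 0.496), and without decitabine replicate 1 it was called higher.

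**Figure D4:**
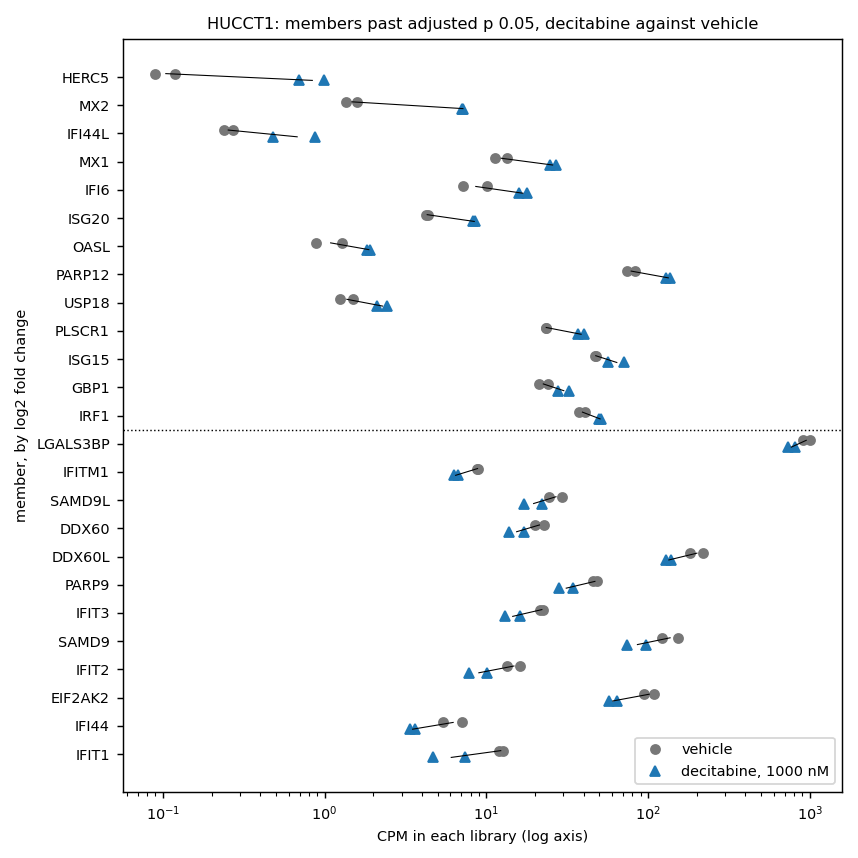
CPM in each HUCCT1 library (x axis, log scale) for the 25 members past an adjusted p of 0.05, ordered by log2 fold change, with 2 vehicle libraries (circles) and 2 decitabine libraries (triangles) per gene. The 13 members above the dotted line rose, led by HERC5 and MX2, and the 12 below it fell, with IFIT1 at the bottom.

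The decitabine effect differed between the lines for 20 members when tested as an interaction over all 12 libraries. It was higher in HUCCT1 for 7 and lower for 13, 14% and 26% of 50, against 8.74% and 7.2% of all genes tested. The doses were 1000 nM and 500 nM, so line, lane and dose cannot be told apart. HERC5 (2.79 ± 0.418, adjusted p = 6.22e-05), MX2 (2.03 ± 0.359, adjusted p = 0.000383) and MX1 (0.97 ± 0.150, adjusted p = 8.33e-05) led the first group, followed by USP18, PLSCR1, PARP12 and IRF1. In EGI-1, MX2 was at 1.07 and 1.29 CPM in vehicle and 1.59 and 1.24 with decitabine, with overlapping ranges, and MX1 at 21.4 and 23.8 against 24.0 and 24.6. Also there, USP18 was at 14.4 and 14.3 against 13.3 and 13.0, and IRF1 at 112 in both against 95.3 and 99.8, values below vehicle. These 7 remained called under each of the 12 alternatives.

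The second group was led by IFIT1 (−1.23 ± 0.229, adjusted p = 0.000644), IFIT2 (−0.99 ± 0.198, adjusted p = 0.0013) and IFI44 (−0.99 ± 0.273, adjusted p = 0.0155). IFIT1 was at 8.87 and 7.84 CPM in EGI-1 vehicle and 9.28 and 10.4 with decitabine, above vehicle in both libraries, whereas in HUCCT1 both fell below. IFITM1 (−0.83), BST2 (−0.78), SAMD9 (−0.74), PARP9 (−0.71) and IFITM2 (−0.69) followed. IFITM2 was at 50.5 and 57.6 CPM in HUCCT1 vehicle and 47.7 and 56.1 with decitabine, with overlapping ranges, whereas in EGI-1 it rose from 6.90 and 7.16 to 11.5 and 10.6. EIF2AK2, IFIT3, DDX60L, DDX60 and LGALS3BP completed the group. Without EGI-1 vehicle replicate 1 the second group held 8 members.

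**Figure D5:**
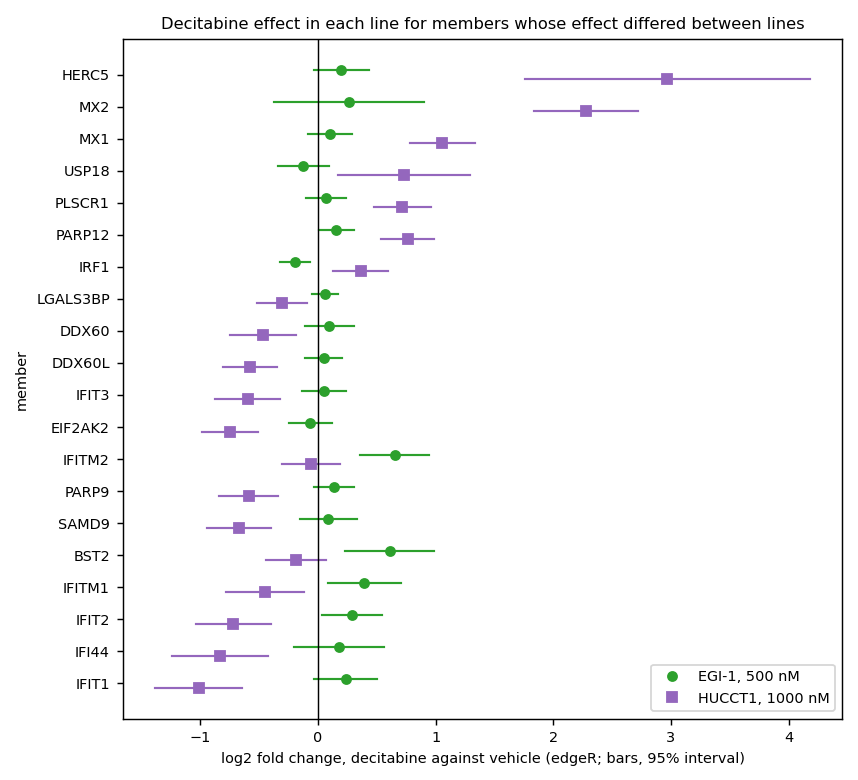
Log2 fold change of decitabine against vehicle in EGI-1 (500 nM, circles) and HUCCT1 (1000 nM, squares), with 95% intervals, for the 20 members whose effect differed between the lines. For 7 members, HERC5 at 2.97 foremost, the HUCCT1 value lies to the right of EGI-1, and for 13 members, with IFIT1 at −1.01 last, it lies to the left.

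Set side by side, the EGI-1 combination and HUCCT1 decitabine, which share no library, called 5 of the 49 members tested in both as higher in both (10.2%): ISG15, ISG20, MX1, IFI6 and PARP12. Of the 19937 genes tested in both lines, 5.31% were higher in both. IFIT2, IFITM1, DDX60L and LGALS3BP were higher in the EGI-1 combination and lower in HUCCT1 with decitabine, 8.16% of the 49 against 1.35% of all genes. These shares rest in part on EGI-1 combination replicate 2. Without it the EGI-1 calls of IFITM1 (log2 0.548), DDX60L (0.191) and LGALS3BP (0.175) were lost, while IFIT2 stood at 0.54. The EGI-1 calls of ISG20 (0.459) and OAS1 (0.36) were lost as well. In HUCCT1 the fall of IFITM1 was not called by DESeq2. STAT2, HERC6, IFITM2, IFITM3, OAS1, OAS2 and BST2 were called in the EGI-1 combination alone. In HUCCT1 alone, IRF1, HERC5, USP18, OASL, MX2, GBP1, PLSCR1 and IFI44L were higher and IFIT1, IFIT3, EIF2AK2, DDX60, SAMD9, SAMD9L, IFI44 and PARP9 lower. Called in neither were 17: IRF9, UBE2L6, IFIT5, OAS3, RSAD2, CMPK2, LY6E, IFI35, XAF1, EPSTI1, PARP14, DTX3L, TRIM14, TRIM21, TRIM25, SP100 and SP110. IFI27 was tested in HUCCT1 only and was not called. The treatments differ, and the difference between these 2 comparisons was not tested.

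The promoter windows can be set beside these calls as a description. Of the members with a window, 10 of the 13 called higher in the EGI-1 combination held the response element core, and 16 of the 29 not called did. In HUCCT1 the core was in 9 of 10 members called higher, in 9 of 11 called lower and in 9 of 22 not called. For CpG, a member with several windows was given the median of its windows, and the median over all members with a window was then 9. In HUCCT1 it was 15 in members higher, 4 in members lower and 10.5 in those not called. But the values ran from 0 to 29 in the first set and from 0 to 22 in the second. In the EGI-1 combination, members called higher had the smaller median, 7 against 12 in those not called. Of the promoters shown above, HERC5 holds 15 CpG and ISG15 17, while IFI6 holds 6 and IFIT1 4.

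The genes upstream of the members were read from fixed lists. Of 21 interferon genes, most had 0 to 3 counts in every library, IFNB1 and IFNG among them. In EGI-1, IFNK, a keratinocyte interferon, was the only one tested, at 6 to 23 counts and with no call. In HUCCT1, IFNE, an epithelial interferon, fell from 207 and 140 counts to 60 and 45 (−1.76 ± 0.248, adjusted p = 3.68e-06) and IFNA1 from 33 and 28 to 16 and 11 (−1.21, adjusted p = 0.0341). IFNL1, an interferon lambda, had 0 counts in both HUCCT1 vehicle libraries and 7 and 3 with decitabine, too few to be tested.

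Of 9 receptor and kinase genes, 3 were higher in the EGI-1 combination (IFNGR1, IFNGR2 and IFNLR1) and 4 in HUCCT1 with decitabine (IFNGR1, IFNGR2, JAK1 and JAK2), and none was lower, against 11.1% and 19.6% of all genes higher. Without EGI-1 combination replicate 2, IFNLR1 alone was called in the EGI-1 combination. IFNGR2, the signalling chain of the interferon gamma receptor, rose by 0.78 in the first (0.54 without that library, adjusted p = 0.0676) and by 0.98 in the second. Of the other STAT and IRF genes and feedback genes, SOCS3, which inhibits JAK kinases, was higher in both (0.59, or 0.54 without that library, and 0.90), and SOCS1 rose in HUCCT1 (1.66 ± 0.195, adjusted p = 2.06e-07). IRF7, the factor that amplifies interferon production, was at 41 and 21 counts in EGI-1 vehicle, 43 and 40 with decitabine, 155 and 179 with talazoparib and 19 and 48 with the combination. Only the talazoparib libraries were high, 2.43 ± 0.290 above vehicle (adjusted p = 9.15e-05), and the combination was below the sum of the single effects (−2.70, adjusted p = 0.00755, and −3.32 without combination replicate 2). In HUCCT1, IRF7 rose with decitabine from 138 and 211 to 572 and 355 counts (1.37 ± 0.204, adjusted p = 2.26e-05).

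A list of 32 further interferon-responsive genes outside the members was read in the same way. In the EGI-1 combination 4 of 24 tested were higher (APOL2, DHX58, PARP10 and ZNFX1) and 3 lower (APOL6, NMI and TRIM5), against 11.1% and 7.61% of all genes. Without combination replicate 2 the counts were 3 and 1, with DHX58, NMI and TRIM5 lost. In HUCCT1 with decitabine 2 of 25 were higher, GBP5 (3 and 0 counts to 137 and 96) and ZNFX1, and 7 were lower, against 19.6% and 13.9% of all genes. GBP5 also had 53 counts in EGI-1 combination replicate 2 and 0 to 3 in the other 7 EGI-1 libraries. The chemokines CXCL9, CXCL10 and CXCL11, which recruit T cells, had 0 to 5 counts in every library. PSMB8, PSMB9 and TAP1 of the antigen-processing region had 0 to 9 counts in every library, and how reads that map to several places were counted is not given in the sources used here.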

How the data were processed

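Total RNA sequencing of 12 libraries was used, 2 for each of 6 arms. The authors deposited raw counts per gene, made per the labels' processing notes with fastp, Trim Galore, HISAT2 and featureCounts on GRCh38. The methods of the paper instead describe STAR and RSEM, for EGI-1 alone. The header has the layout of featureCounts, and the strand setting is not given in the sources used here. Gene symbols came from GENCODE release 44 (60437 of 60651 genes matched). Genes were kept by filterByExpr (22406 in EGI-1, 22479 in HUCCT1, 25096 in both lines), scaled by TMM and tested with edgeR 4.0.16 (quasi-likelihood, robust, in R 4.3.3), with Benjamini-Hochberg adjustment over all genes kept and a threshold of 0.05. All 8 EGI-1 libraries, the 4 HUCCT1 libraries, or all 12 for comparisons between lines, shared a fit. SE is the log2 fold change divided by the root of F. DESeq2 1.42.0, upper-quartile scaling, no filter, replicate blocks, smaller or larger fits and leaving out each library were alternatives. With 2 against 2, an exact permutation test cannot go below 0.333, so none is given. Counting intervals are exact and cover counting error only, and a group at or under 3 counts per library was treated as a floor.

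The members, lists and tests were chosen with earlier results of these data known. The members picked for description were up to 8 called members with the largest change in each direction of a comparison. STAT2, IRF9, IRF1, USP18, ISG15, HERC5, UBE2L6, MX1, IFIT1, OAS1, RSAD2, IFI27, IFI6, BST2 and GBP1 were described whatever their values. Many are given with values in each library, but some, such as CMPK2 and PLSCR1, only by their log2 values. The fits were tested on simulated data. Larger planted changes were nearly all recovered and smaller ones less often. Even the smaller planted changes exceeded most of the members' changes called within a line, and they were set in well-counted genes. Recovery of changes as small as most of those was not tested. False calls stayed near the nominal share when counts were drawn with trended dispersions, but exceeded it in each of the 3 fits when they were drawn with gene-wise dispersions, most in the 4-library HUCCT1 fit. Gene-wise dispersions were the first setting tried, and both are kept, so calls near the threshold deserve caution.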

Additional observations from a re-analysis of the deposited data

Results flagged for a closer look

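The effect of decitabine differed between HUCCT1 at 1000 nM and EGI-1 at 500 nM for 20 members, by the interaction test in edgeR at an adjusted p under 0.05. Each value is the HUCCT1 minus the EGI-1 log2 effect. It was 2.79 for HERC5, 2.03 for MX2, 0.97 for MX1, 0.88 for USP18, 0.66 for PLSCR1, 0.62 for PARP12 and 0.58 for IRF1. Below 0, it was −1.23 for IFIT1, −0.99 for IFIT2, −0.99 for IFI44, −0.83 for IFITM1, −0.78 for BST2, −0.74 for SAMD9, −0.71 for PARP9, −0.69 for IFITM2 and −0.67 for EIF2AK2. The rest were IFIT3 at −0.63, DDX60L at −0.61, DDX60 at −0.54 and LGALS3BP at −0.35. Line, lane code and dose cannot be told apart in these values.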

How the results depend on the processing

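Counts are members called higher unless said otherwise. For decitabine against vehicle in EGI-1 the count was 0 with upper-quartile scaling, with either replicate block and with only the 4 libraries compared, and 0 to 2 without 1 library (0 to 1 lower, median log2 fold change 0.0781 to 0.106; 0.0629 with upper-quartile scaling). For talazoparib it was 1 with upper-quartile scaling, 1 with either replicate block, 5 with no filter and 8 with only 4 libraries, and 0 to 1 without 1 library (0 to 1 lower, median 0.0503 to 0.123). For the combination against vehicle it was 8 to 12 without 1 library (0 to 1 lower, the 1 being LY6E without vehicle replicate 2, median 0.159 to 0.188), with 1 lower under upper-quartile scaling (median 0.127) and 2 lower with only 4 libraries. Against decitabine the combination gave 4 with no filter and 2 to 6 without 1 library (0 to 1 lower). Against talazoparib it gave 5 with no filter or with only 4 libraries, 0 with either replicate block and 0 to 1 without 1 library. The departure from additivity gave 0 to 1 without 1 library. In HUCCT1, leaving out 1 library gave 9 to 11 higher and 8 to 11 lower (median 0.00854 to 0.107). The difference between lines gave 7 to 8 higher and 8 to 14 lower without 1 library (median −0.148 to 0.0312; −0.142 with no filter). Between vehicles the median was −0.0858 with upper-quartile scaling, 0.0522 with no filter, 0.0402 with DESeq2 and −0.0591 to 0.11 without 1 library. The cause of these changes was not tested. No call changed direction, but medians changed sign: the difference between lines was −0.0722 and reached 0.0312 without HUCCT1 vehicle replicate 2, the vehicle median was 0.0335 and fell below 0 with upper-quartile scaling, without EGI-1 vehicle replicate 1 and without HUCCT1 vehicle replicate 2, and the departure median was 0.00617, was −0.00341 with no filter and ran from −0.019 to 0.0357 without 1 library. Of 276 summary values under alternatives 224 stayed within the limits set and 52 moved. The 7 members called higher in the EGI-1 combination under all 10 alternatives were ISG15, IFI6, HERC6, IFITM2, IFITM3, STAT2 and OAS2. In HUCCT1, 7 higher (IFI6, PLSCR1, HERC5, PARP12, ISG20, MX2, MX1) and 8 lower (IFI44, EIF2AK2, PARP9, DDX60L, SAMD9, IFIT2, IFIT3, IFIT1) held under all 9. The replicate block gave 13 members higher in the EGI-1 combination and 18 higher and 14 lower in HUCCT1. Same-numbered libraries deviated together with r from −0.217 to 0.15 in EGI-1 and 0.235 in HUCCT1 (16493 genes), so the numbers were not taken to pair the libraries. IFI27, at 0 to 7 counts, could not be tested in EGI-1. The pathway lists were refitted without EGI-1 combination replicate 2, an alternative chosen after seeing the data.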
